A study of Drosophila melanogaster with 2 samples.

Results

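Dense clusters of D1-eGFP binding sites held 1050 of the 3388 reproducible peaks, or 31.0%, in 270 chains of neighbouring summits. Within the authors' reproducible peak set, the members were chosen by position. Summits were ordered along each chromosome, neighbours no more than 5000 bp apart were chained, and chains of 3 or more summits were kept. Of the other 2338 peaks, 814 lay in 407 chains of 2 and 1524 had no neighbour within that distance. The reproducible set comes from an irreproducible discovery rate (IDR) analysis, which keeps peaks whose rank agrees between replicates, and it was exactly the 3388 peaks of highest signal in the pooled list. Signal and summit position therefore chose the members, and both are described below without a test. Peaks are not replicates of a condition and neighbours share their locus, so no p-value was computed over peaks. The quantities were instead recomputed in each replicate's own list of its 3388 highest peaks and are given as the mean ± SD of both lists (n = 2). The IDR set was derived from these replicates, so the replicate lists are no independent check of it.

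The samples were 2 biological replicates of whole Drosophila melanogaster pupae, labelled 24 hours, forming 1 group with no treatment. The flies stably carried a transgene for D1 with green fluorescent protein at its C terminus, and sonicated chromatin was precipitated with an anti-GFP antibody. Sex was not collected, the whole organism was used, and peaks of different cell types cannot be told apart. Each peak carries the authors' signal value, of unstated scale, and the read depth is unknown, so no counting interval could be given.

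D1 is a chromosomal protein with repeated AT-hooks, short peptides that lie in the minor groove of runs of A and T. It is best known in Drosophila for its association with AT-rich satellite DNA in pericentric heterochromatin. Introns and the flanks of genes in euchromatin also hold short A/T runs. In 1037 of the 1050 members (98.8%), every 31-base word of the 200 bp around the summit occurred once in the 6 chromosomes with peaks. The same held for 98.6% of the other peaks. The Y chromosome and unplaced sequence were not searched. No chain had the same word in the windows of summits more than 200 bp apart. Members of a chain that far apart were therefore not exact copies of 1 sequence, and diverged copies were not looked for.

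The sequences show what the members shared and what they did not. The chain at argos (aos, a secreted inhibitor of the EGF receptor) had 8 summits over chr3L:16476843-16490679. The whole chain lay inside the longer gene CG33158, and it ran on beyond the start of aos. It is shown because, of the 12 chains whose windows were read out, it had the widest difference in A/T content between summits and midpoints. On 200 bp windows other chains differed more, such as that of pum and D1 with 70.7% and 48.9% against 69.1% and 57.8% at aos. Each line holds 61 bases of the plus strand of the Release 6 (dm6) reference, centred on a summit or midway between neighbouring summits, with runs of 6 or more A or T in capitals.
aos summit 1, chr3L:16476813-16476873, signal 426: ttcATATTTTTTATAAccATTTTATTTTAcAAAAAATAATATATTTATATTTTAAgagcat
aos summit 4, chr3L:16483803-16483863, signal 309: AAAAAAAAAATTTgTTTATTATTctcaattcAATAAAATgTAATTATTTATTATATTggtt
aos summit 6, chr3L:16489007-16489067, signal 220: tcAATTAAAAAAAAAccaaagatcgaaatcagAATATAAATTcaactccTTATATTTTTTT
aos summit 5, chr3L:16484032-16484092, signal 273: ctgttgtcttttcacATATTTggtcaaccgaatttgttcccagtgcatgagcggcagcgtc
aos midpoint 5, chr3L:16486519-16486579: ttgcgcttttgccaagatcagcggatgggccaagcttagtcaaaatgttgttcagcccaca
aos midpoint 7, chr3L:16490264-16490324: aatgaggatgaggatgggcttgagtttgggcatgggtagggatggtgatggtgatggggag
Summits 1 and 4 were 88.5% A or T, with 49 and 47 bases in runs, and summit 6 was 80.3% with 35. Midpoints 5 and 7 were 50.8% and 45.9% A or T and held no run, but they were the only such ones: 4 of the 6 midpoints of the chain held runs, of 7 to 24 bases in all, and midpoint 2 was 70.5% A or T. Summit 5 lay 229 bp from summit 4 and was 52.5% A or T with a single run of 6 bases, although its signal of 273 was above that of summit 6. Over the whole chain the 8 summit windows averaged 75.4% A or T and the 6 midpoint windows 54.6%.

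The chain in miles to go (mtgo, which encodes a fibronectin type III domain protein needed for muscle development) had 9 summits, the most of any chain. Its windows are shown because runs occurred on both sides of the comparison.
mtgo summit 1, chr2L:16587810-16587870, signal 401: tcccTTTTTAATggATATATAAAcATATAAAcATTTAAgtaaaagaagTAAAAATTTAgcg
mtgo summit 7, chr2L:16597898-16597958, signal 372: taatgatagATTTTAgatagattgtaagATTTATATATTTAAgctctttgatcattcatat
mtgo midpoint 7, chr2L:16598227-16598287: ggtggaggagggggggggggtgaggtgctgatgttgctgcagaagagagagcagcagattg
mtgo midpoint 1, chr2L:16589343-16589403: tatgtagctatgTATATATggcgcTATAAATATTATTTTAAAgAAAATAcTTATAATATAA
Summits 1 and 7 were 78.7% and 80.3% A or T. Midpoint 7, between summits 659 bp apart, was 37.7% and held no run. Midpoint 1 was 82.0% with 42 bases in runs, more than summit 1 with 40. It is the middle of a gap of 3067 bp, so its distance from IDR summits follows from how it was picked.

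Some chains had the opposite order. On 200 bp windows the summits averaged below the midpoints in 5 of the 7 chains of chromosome 4, which is AT-rich throughout, by as little as 71.0% against 71.5% at ci, and chains on the long chromosomes did so too, such as that at mamo on X with 56.7% against 63.7%. The chain between myoglianin (myo, a ligand of the TGF-beta family) and eyeless (ey, the Pax6 factor of eye development) had 4 summits, and 1 summit and 1 midpoint are shown.
myo-ey summit 3, chr4:696827-696887, signal 163: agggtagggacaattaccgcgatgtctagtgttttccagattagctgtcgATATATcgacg
myo-ey midpoint 2, chr4:696457-696517: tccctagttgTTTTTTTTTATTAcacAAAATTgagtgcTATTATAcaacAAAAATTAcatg
The 4 summit windows of this chain averaged 61.9% A or T and its 3 midpoints 70.5%. Among chains without overlapping peaks, the smallest mean gap was in CG9663, where a pair of intronic summits lay 199 bp apart, and the stretch that holds both is printed whole (chr2L:3302158-3302457, plus strand, summits at bases 51 and 250).
CG9663 stretch: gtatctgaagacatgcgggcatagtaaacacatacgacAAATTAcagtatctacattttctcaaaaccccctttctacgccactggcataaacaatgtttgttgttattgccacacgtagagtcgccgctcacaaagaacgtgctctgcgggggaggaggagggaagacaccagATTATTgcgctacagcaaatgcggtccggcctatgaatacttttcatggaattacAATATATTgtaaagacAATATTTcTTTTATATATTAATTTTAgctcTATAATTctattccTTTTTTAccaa
The stretch was 61.0% A or T with 59 bases in runs. The runs crowded around the second summit, whose pooled signal was 539, while the first summit had the higher signal, 656, with 6 bases in runs in its 61-base window against 33 in that of the second.

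Across all 1050 members, the 61-base window at the summit averaged 69.1% A or T, and 928 of them (88.4%) held a run of 6 or more. Midway between neighbouring summits, where the gap left room for separate windows, 699 windows averaged 58.1% and 446 of them (63.8%) held such a run. The summit mean was above the midpoint mean in 233 of 270 chains, on 200 bp windows. The chain spans as a whole averaged 59.1% A or T and the 5 kb on either side 58.7%, against 57.8% over the 6 chromosomes with peaks. On average, then, the high A/T content was local to the summits and not shared by the DNA between them.

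Single peaks had nearly the same content. The mean in 200 bp was 66.8% in dense chains, with an SD of 6.94 over peaks, and 66.4% in the other peaks, and in the replicate lists it was 66.6% ± 1.25 (SD, n = 2) and 66.2% ± 1.15. Within each replicate the dense chains were higher, by 0.473 percentage points in replicate 1 and 0.338 in replicate 2, a small difference beside the SD over peaks. The order depended on the window: over 500 bp, dense chains averaged 61.6% and other peaks 62.4%. The mean profile around the summits differed in its flanks. The 21 bp centred on summits of dense chains averaged 69.6% A or T, against 55.9% at 300 bp to the left and 55.6% at 300 bp to the right. Single peaks had 67.6% at the summit and 57.9% and 57.5% at those distances, so their profile was shallower at both. In the lists of replicates 1 and 2, dense chains had 70.3% and 67.4% at the summit. At 300 bp they had 55.8% and 56.0% to the left and 55.9% and 56.7% to the right. Single peaks were not profiled in the replicate lists, so the comparison with them rests on the IDR set.

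**Figure D1:**
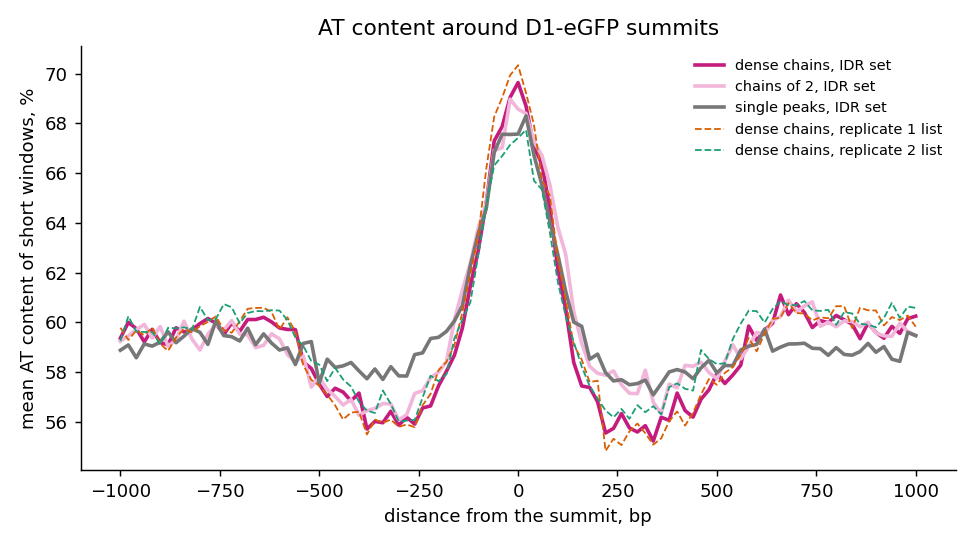
Mean A/T content of 21 bp windows (y axis, %) against distance from the summit (x axis, bp) for dense chains, chains of 2 and single peaks of the IDR set, with dense chains of each replicate's own list dashed. All lines peak within about 20 bp of the summit, and the line of dense chains lies below that of single peaks from 200 to 400 bp on either side, whereas that of chains of 2 does so throughout only on the left.

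Chains were mostly short. There were 154 chains of 3 summits, 52 of 4, 37 of 5, 9 of 6, 6 of 7, 9 of 8 and 3 of 9. Their spans from first to last summit ranged from 738 to 17048 bp with a median of 4831 bp, and together they covered 1473 kb, or 1.10% of the 6 chromosomes, while holding 33.4% of the summed IDR signal. The replicate lists gave chains in like number: 275 chains with 1050 peaks (31.0%) in replicate 1, with a largest chain of 13 summits, and 262 chains with 1021 peaks (30.1%) in replicate 2, with a largest chain of 11. The next 3388 pooled peaks below the IDR set formed fewer, 231 chains with 812 peaks (24.0%).

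Most chains were seen in each replicate. In 200 of the 270 chains (74.1%) at least 3 of the highest summits of replicate 1 fell within the chain, and the count in replicate 2 was also 200. Both replicates did so in 156 chains (57.8%), and in 62 of the 64 chains with 5 or more summits. Of the 1050 members, 950 (90.5%) had an entry within 100 bp in both replicate lists of 30000 peaks, against 92.6% of the other peaks. Another 97 had one in a single replicate and 3 in neither. Members among the 3388 highest peaks of both replicates numbered 673, or 64.1%, close to the 61.9% over the whole IDR set.

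**Figure D2:**
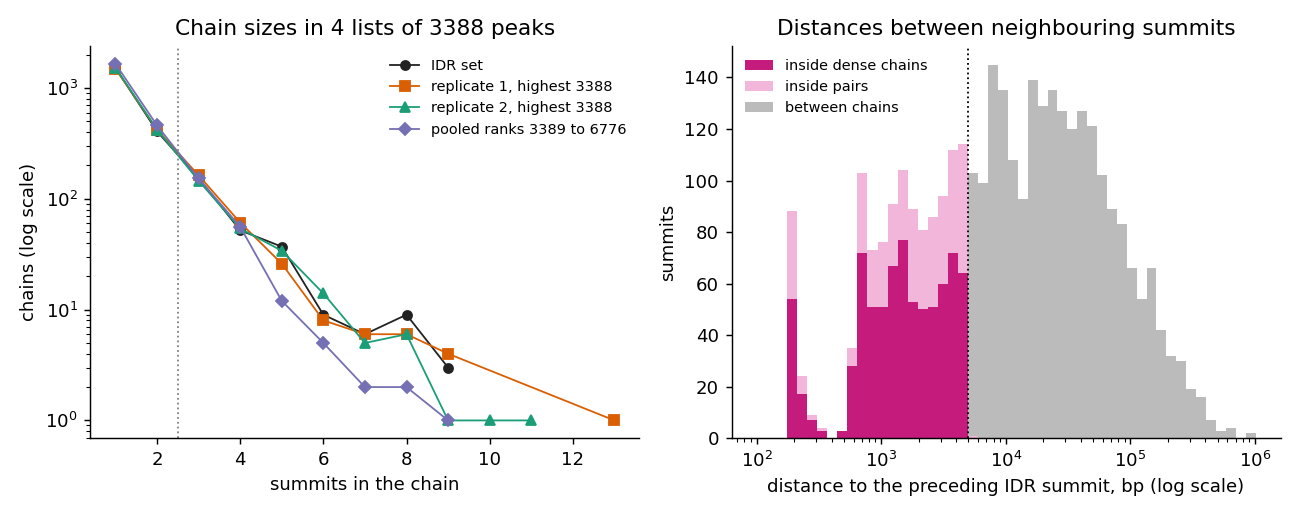
Left, number of chains (log scale) against summits per chain in the IDR set, in each replicate's highest 3388 peaks and in the next 3388 pooled peaks, with the dotted line at the cut for dense chains. Right, number of IDR summits against distance to the preceding summit (log scale, bp), with the dotted line at 5000 bp; no break in the distances marks that limit, and a separate group lies at 199 to 341 bp.

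Gaps between neighbours in dense chains had a median of 1479 bp and an interquartile range of 812 to 2868 bp, and in chains of 2 the median was 1879 bp. The 5000 bp limit cut through a continuous distribution: 64 gaps over all IDR neighbours measured 4501 to 5000 bp and 47 measured 5001 to 5500 bp. Just inside, a gap of 4986 bp held a chain of 3 together at Tpr2 and one of 4975 bp joined 2 stretches of the aos chain. Just outside, a summit at E(spl)m2-BFM lay 5002 bp from the preceding one and was itself in a separate dense chain of 4. A summit at Gug lay 5022 bp from the preceding one and was a single peak.

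At the other end the gaps fell into separate groups. Of the 1187 gaps within chains of any size, 125 measured 199 to 341 bp, with a median of 204 bp, and the next was 470 bp. Most peaks in the list are 420 bp wide, so neighbours of full width at this distance overlap. Of these close pairs 81 lay in dense chains, and 75 dense chains held overlapping peaks. Whether such a pair marks separate binding events or a single broad one was not tested. With overlapping peaks merged to the higher, dense chains held 28.0% of the peaks that remained. Peaks narrower than 420 bp made up 90 members (8.57%) and 4.62% of the other peaks, and their median signal in dense chains was 522, against 203 for members of full width. The other peaks had a like contrast, 488 against 193.

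Signal was slightly higher in dense chains. The median was 212, with quartiles of 169 and 292, against 196 with quartiles of 162 and 256 in the other peaks. In replicate 1 the medians were 106 and 95.5 and in replicate 2 they were 116 and 108, so the direction was the same in each, and the distributions overlapped over most of their range. The 847 IDR peaks of highest signal, 25.0% of the set by construction, included 331 members (31.5%) and 22.1% of the others. By chain size the median went from 193 in single peaks to 204 in chains of 2 and of 3, and to 217 in chains of 4 or 5 and of 6 or more.

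Within a chain, signal was no more alike than between chains. The SD of log2 signal was 0.58 within chains and 0.58 over all members. Over the 780 neighbouring pairs of summits, Pearson's r of their log2 signals was 0.0266, a description over pairs that share summits. The highest summit of a chain had a median of 1.96 times the signal of the lowest, and at most 8.19 times. It was an end of its chain in 144 of 270 (53.3%), where ends made up 56.0% of positions averaged over chains, and it lay at a promoter in 95 (35.2%).

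Dense chains lay less often at promoters and more often in introns than other peaks. A summit within 500 bp of an annotated transcription start was counted as a promoter peak: 318 members (30.3%) were so placed, against 953 of the others (40.8%) and 37.5% of the whole set. Replicate 1 gave 27.7% and 41.3%, and replicate 2 gave 30.2% and 42.6%, with an SD between the lists of 1.73 for dense and 0.927 for other peaks, so the gap was wider than the spread in both. Introns held 461 members (43.9%), against 36.8% of the others and 39.0% of the whole set, and 44.4% ± 2.18 (SD, n = 2) against 36.1% ± 0.705 in the replicate lists. Intergenic summits numbered 236 (22.5%), against 19.2% of the others and 20.2% of the whole set, with 25.7% and 21.0% in dense chains of the replicates. Away from starts, 5' UTRs, 3' UTRs, coding exons and other exons held 6, 10, 2 and 17 members. The shares were 0.571%, 0.952%, 0.190% and 1.62% of members, against 0.599%, 1.54%, 0.214% and 0.898% of the others. Over the whole set they were 0.590%, 1.36%, 0.207% and 1.12%. The median distance from a member to the nearest start was 1344 bp, against 906 bp, while the median number of distinct starts within 5 kb was 2 in both.

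The promoter share was lower in each larger class of chain. It was 42.2% in single peaks, 38.1% in chains of 2, 37.4% in chains of 3, 26.5% in chains of 4 or 5 and 21.0% in chains of 6 or more, where introns held 50.3%. Still, 179 of the 270 chains (66.3%) had at least 1 promoter summit. Of these, 82 had 1, 61 had 2, 31 had 3, 4 had 4 and 1 had 5, so that a typical chain with a promoter summit also had summits away from it. Only promoter summits were found in 20 chains, and 63 chains had promoter summits nearest to 2 or more genes.

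**Figure D3:**
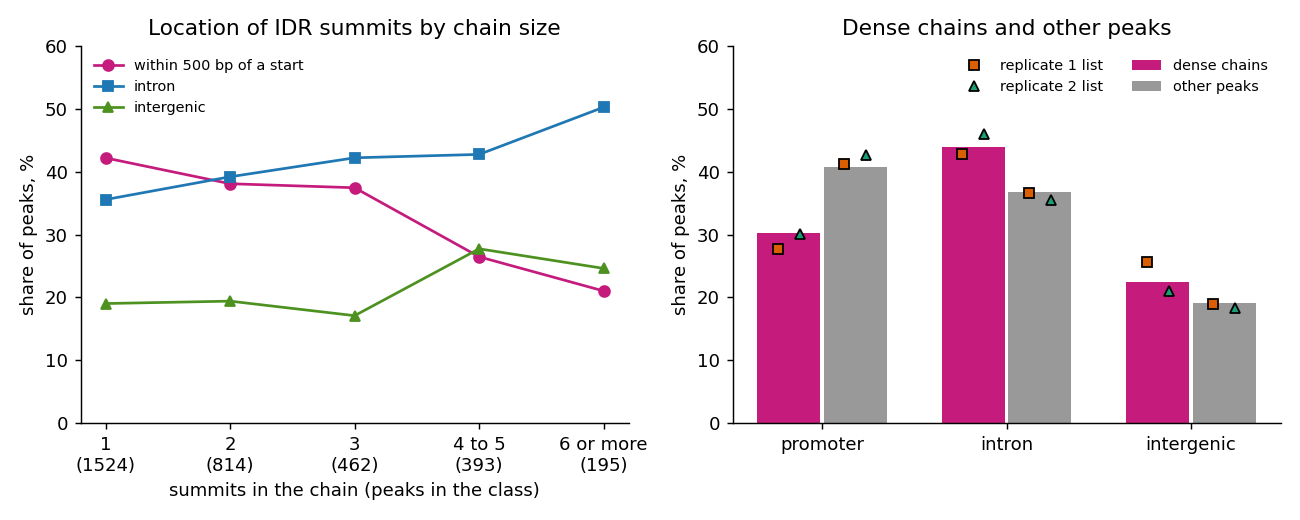
Left, share of IDR summits (y axis, %) within 500 bp of a start, in introns and in intergenic sequence by the number of summits in the chain, with the peaks per class in brackets. Right, the same shares in dense chains and other peaks as bars, with each replicate's own list as points; both replicates have the lower promoter share and the higher intron share in dense chains.

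Of the words found at core promoters in Drosophila, a pair was scarcer in the members and others were not. TATCGATA, the element bound by the DREF factor of housekeeping genes, was in the 200 bp of 9 members (0.857%) and 46 others (1.97%), on either strand. GGTCACACT, the core of Motif 1 bound by M1BP, was in 2 (0.190%) and 24 (1.03%). At promoter peaks alone the first was in 6 of 318 (1.89%) and 33 of 953 (3.46%), and the second in 1 (0.314%) and 22 (2.31%). The 200 bp before 19253 distinct coding starts held these words in 6.19% and 2.47%. AATAT, a satellite repeat unit bound by D1 in earlier work, was in 74.6% of members, 75.2% of others and 56.6% of those start windows, and 2 tandem copies were in 1.71%, 1.33% and 0.758%. TATAAA, the TATA box word, was in 41.0% of members, 38.8% of others and 33.5% of the start windows, and GAGAG, the word of the GAGA factor, in 21.9%, 20.5% and 25.2%. The start windows were not matched to the peaks in A/T content. Whether base composition accounts for the different shares of words made of A and T was not tested. A word in a window is a description and not a bound site.

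Coding genes with a dense summit had a median length of 12454.5 bp, against 7845 bp for the 1385 with an IDR but no dense summit. Of 13945 protein-coding genes, 326 (2.34%) had a dense summit in the body or within 500 bp of a start, and 148 of these had 3 or more. The share was 0.721% of genes up to 2 kb, 1.45% from 2 to 5 kb, 2.59% from 5 to 10 kb, 7.26% from 10 to 20 kb, 9.21% from 20 to 50 kb and 15.6% above 50 kb. Any IDR summit was likewise found in 4.49% of the shortest and 54.7% of the longest genes. Among genes with an IDR summit, a dense one was present in 16.0% of the shortest class, 15.1% from 5 to 10 kb and 28.6% of the longest, so the share varied less with length there. A whole chain lay inside 1 gene body in 106 cases (39.3%), 101 of them coding. The 97 coding genes concerned had a median length of 39342 bp against 2166 bp for all coding genes. A gene that holds a whole chain is at least as long as its span, so a longer median follows in part from the choice.

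**Figure D4:**
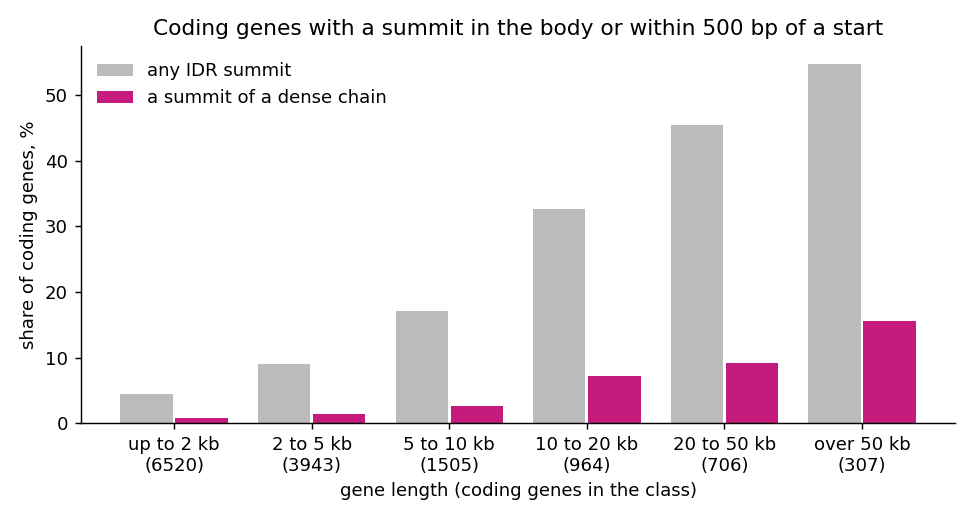
Share of protein-coding genes (y axis, %) with any IDR summit and with a summit of a dense chain, by gene length (x axis, with the number of genes in brackets). Both shares are higher in each longer class, from 0.721% to 15.6% for dense chains.

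The genes with most dense summits were scribbler (sbb, a transcriptional corepressor) with 13 of its 16 IDR summits, mtgo with 11 of 13, the Tousled-like kinase gene Tlk with 11 of 11 and CG1677 with 11 of 13. The 11 in CG1677 also lay in lncRNA:CR44357, and their nearest starts were those of unc-119, brk, CG42780 and CBP. Tet, of the family of methylcytosine dioxygenases, and schnurri (shn, a zinc finger factor of Dpp signalling) had 10 each, and polychaetoid (pyd) and Mnt had 9. The genes CHES-1-like, a forkhead factor, and kirre, an immunoglobulin protein of myoblast fusion, had 8. More than 1 chain was found in 15 coding genes: Tlk and CG1677 had 3 each, and kirre had 2 within 394149 bp. Tlk, sbb, Tet and CHES-1-like thus had their IDR summits mostly or entirely in chains, whereas kirre had 8 of 17.

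**Figure D5:**
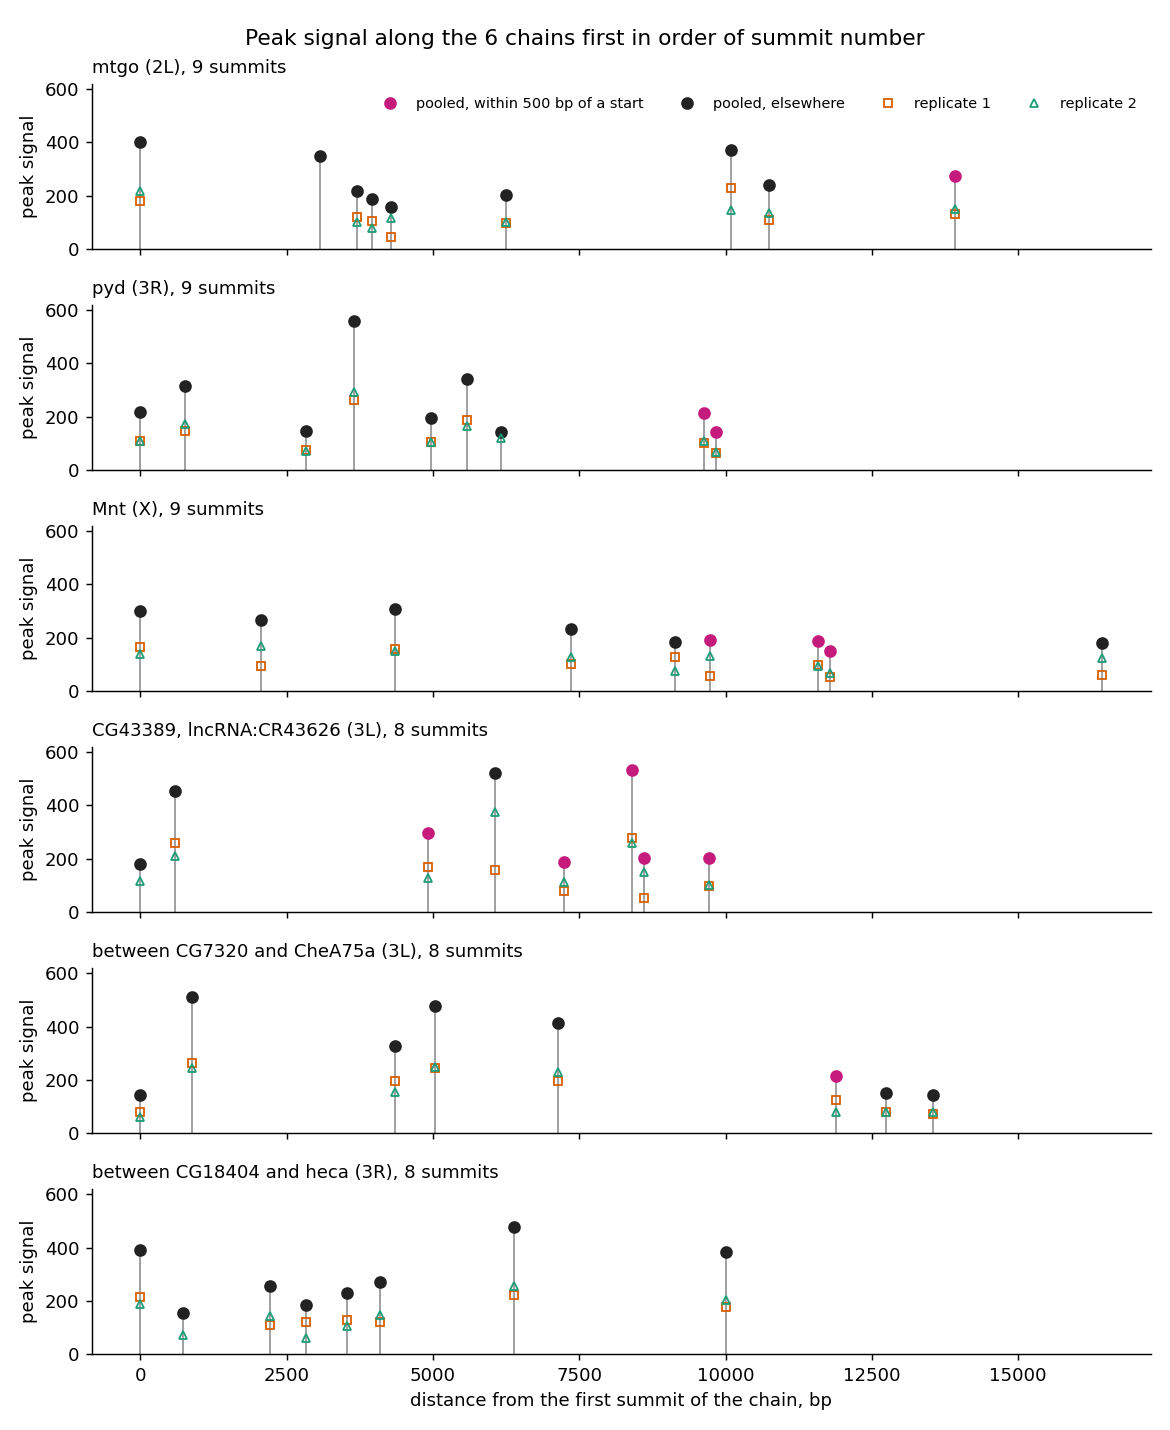
Peak signal (y axis, as the authors gave it) against distance from the first summit (x axis, bp) for the 6 chains first in order of summit number, with pooled values as filled points and each replicate as open ones. Signals differ widely within most of the chains, and the highest summit lies away from a start in 5 of the 6, CG43389 being the exception.

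In the mtgo chain all summits but the last were intronic, and signal was not graded along it. Summit 1 had a signal of 401 in the pooled list, 181 in replicate 1 and 217 in replicate 2. Summit 7 had 372, 230 and 148, and the last, 73 bp from a start of mtgo, had 273, 131 and 149. Summits 1 and 7 thus stood above the promoter summit in the pooled list, and summit 7 stood level with it in replicate 2. Summit 2, at 348 in the pooled list, had no entry within 100 bp in either replicate, the nearest being 131 and 102 bp away. Summit 5 was uneven between replicates, at 44.1 and 117.

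The chain at pyd, which encodes a junction scaffold related to ZO-1, had 9 summits over 9839 bp (chr3R:8922364-8932203), 7 of them intronic. Its highest summit was intronic, 5885 bp into the gene from a start, with signals of 558 pooled, 263 and 291. Both promoter summits, 200 bp apart and upstream of the start, were lower at 213 and 142, with 102 and 109 for the first in the replicates and 65.2 and 67.9 for the second. The intronic summit was therefore above both promoter summits in each replicate. Intronic summit 7, at 142, had no entry within 100 bp in replicate 1 and 120 in replicate 2.

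In Mnt, a bHLH repressor of the Max network, all 9 IDR summits of the gene formed 1 chain over 16438 bp (chrX:3678010-3694448). Signals ran from 151 to 306 and were flatter than in pyd. The highest, 306, had 156 and 152 in the replicates, and the lowest, 151, had 53.6 and 67.5. The 3 promoter summits, 6 to 8 of the chain, had 190, 188 and 151 in the pooled list, all below the 4 summits that open the chain. That order did not hold throughout in either replicate. In replicate 1 promoter summit 7 had 98.0, above summit 2 with 93.2. In replicate 2 promoter summit 6 had 130, above summit 4 with 127.

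The aos chain ran from an intron of aos over its promoter into an intron of CG33158, the longer gene whose span contains aos. The intronic summit 1 was the highest at 426, with 212 and 211 in the replicates. Promoter summits 4 and 5, 183 and 412 bp upstream of the start, had 309 and 273, with replicate values of 162 and 155 for the first and 135 and 135 for the second. Summit 7, at 164, had 90.9 in replicate 1 and no entry within 100 bp in replicate 2. The order of summits 1, 4 and 5 was the same in both replicates.

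The sbb chain of 8 (chr2R:18333369-18345831) was intronic throughout, 11465 bp or more from any start, with signals from 146 to 423. The highest had 158 in replicate 1 and 256 in replicate 2, so that in replicate 1 it was level with the second summit of the chain, at 158. In Raf, the kinase of the MAP kinase cascade, 6 of 8 summits lay in the gene and 2 at its neighbour CG2865. The highest, in an intron 5243 bp from the start, had 521 pooled, 238 and 281, and it was the highest in each replicate.

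Other large chains lay between genes. That between CG18404 and heca (chr3R:30255617-30265632) had 8 intergenic summits, none nearer than 2435 bp to a start, with signals from 156 to 479. Its highest had 223 and 256 in the replicates, and its lowest had no entry within 100 bp in replicate 1 and 70.4 in replicate 2. That between CG7320 and CheA75a (chr3L:18231570-18245112) spanned 13542 bp with 7 of 8 summits intergenic. Summits 2, 4 and 5 had 510, 477 and 414, while the last 2 had 151 and 143; in the replicates the high ones ranged from 195 to 262 and the last 2 from 71.7 to 80.7, without overlap. A chain from CG33796 to lncRNA:CR45755 held 7 intergenic summits of 8, with its highest, 449, at the far end. In the chain at CG43389 and lncRNA:CR43626, 5 of 8 summits were at promoters, and its summit of 523 was uneven, with 159 in replicate 1 and 375 in replicate 2.

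The chains named for the highest mean signal had 3 summits each, the size of 154 of all 270 chains. Among chains of 6 or more summits the highest mean was 446, close to the lowest of those named, 448 in CG9663. Median signal was not higher in short chains: it was 204 in chains of 3 and 217 in chains of 6 or more. The osa chain, in a gene for a subunit of the Brahma remodelling complex, had 3 summits with a mean of 492, and the highest, 819, lay in an exon of lncRNA:CR46035 inside osa with 406 and 409 in the replicates. Between COX7AL2 and CG31668 the mean was 487, and the highest summit, 744, had 347 and 398. In the chain from neb, a kinesin gene, to Pyroxd1 the mean was 465, and the summit 10 bp from the start of Pyroxd1 had 586, with 291 and 297. The summit 203 bp upstream of C1GalTA, a galactosyltransferase gene, reached 897, with 484 and 419, beside neighbours of 203 and 271. The C1GalTA chain thus had 1 summit far above the others, whereas all 3 summits of the COX7AL2 chain were at 277 or above.

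Signals varied among the most tightly spaced chains without overlapping peaks. The chain in CG9663, of mean gap 524 bp, had 656 and 539 at its close pair and 149 at the promoter. The next, of mean gap 746 bp, lay at Aldh, an aldehyde dehydrogenase gene inside the potassium channel gene Shawl, with signals of 166, 189 and 278. In the myo to ey chain the summit in the intron of myo had 299, with 138 and 160, the one at the start of myo had 148, with 22.5 and 111, and that at the start of ey had 188, with 105 and 91.6. The replicates differed most at the start of myo.

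Ecdysone, the steroid pulse that drives metamorphosis, acts through nuclear receptors, several of which had chains. Of 24 listed genes of the ecdysone response, 16 had an IDR summit and 4 (16.7%) a dense one, with a median gene length of 21191 bp. Of all 13945 coding genes, 1711 had an IDR summit and 2.34% a dense one, and of genes from 20 to 50 kb, 45.5% and 9.21% did. Eip75B, a nuclear receptor induced early, had 8 dense summits in 2 chains. Its highest had 413 pooled, with 172 and 238, and its promoter summit 266, with 115 and 159, so the promoter was not the high point in either replicate. Eip78C and Hr4, also nuclear receptors, had 4 intronic summits each, with highest values of 536, with 261 and 259, and 462, with 236 and 222. EcR, the receptor subunit itself, had 3 dense summits in a chain of 4 that runs over tRNA genes beside it, with a highest value of 215. The genes br and usp had no IDR summit, and Eip74EF had 8, none of them in a dense chain.

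Transcription factor genes of long loci had 6 of 24 members (25.0%) with a dense summit, and their median length was 48183 bp. The shares to set beside this and other lists of long genes are 2.34% of all coding genes, 9.21% of those from 20 to 50 kb and 15.6% of longer ones. Shorter classes had 7.26% from 10 to 20 kb, 1.45% from 2 to 5 kb and 0.721% up to 2 kb. Median lengths were 15523 bp for limb and eye selectors and 1632 bp for small heat shock genes. They were 4828.5 bp for HMG and AT-hook proteins and 4135 bp for insulator and promoter factors. Pipsqueak (psq) had 6 summits from 151 to 238, and pointed (pnt, an ETS factor) had 4 intronic ones with a highest of 550, with 258 and 293. The Hox list had 1 of 8: Antp, with 4 summits of 184 to 363, the highest with 193 and 164. The list named for limb and eye selectors, not all of whose members are such selectors, had 3 of 29. Of these, sqz had 2 summits and ci and ey 1 each, that of ey 54 bp upstream of its start. Notch pathway genes had 1 of 9 matched, mam with 3, and listed potassium channels 1 of 12, Irk1 with 3. The potassium channel gene Shawl was not on that list and had 3 dense summits, in the chain at Aldh. Synaptic adhesion genes had 0 of 18 despite a median length of 42012 bp, and only 1 of them had any IDR summit. Small heat shock genes had 0 of 7.

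Chromatin factors gave a pair of cases. Trl, which encodes the GAGA factor, was the 1 of 9 insulator and promoter factor genes with a dense summit. Its chain of 3 had 779 in an intron, with 361 and 425, beside 251 and 169. Among 6 genes of HMG and AT-hook proteins, D1 itself was the one. A summit 84 bp inside its start had 845, with 391 and 485, and ended a chain of 6 that runs through the 5' part of pumilio (pum, a translational repressor), where a second high summit had 680, with 365 and 320. Both stood above the 4 other summits of the chain, at 147 to 211, in each replicate that had an entry. The flies carry a D1 transgene, and whether its copy adds to the signal at D1 was not tested.

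Chains were present on all 6 chromosomes. The share of a chromosome's peaks in dense chains was 25.4% on 2L, 26.5% on 2R, 35.3% on 3L, 30.5% on 3R and 35.5% on X, with replicate means of 25.4% ± 1.17 (SD, n = 2), 28.5% ± 3.77, 34.9% ± 2.27, 29.4% ± 2.30 and 34.3% ± 1.23. The values of 3L and X were above that of 2L in each replicate. On chromosome 4 the share was 33.3%, or 22 of 66 peaks, but 23.4% and 14.1% in the replicates, so it is not firm. Per length, chromosome 4 had the most chains, 5.19 per Mb from 7 chains, followed by 3L with 2.81, and 2R had the fewest with 1.46.

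Lower peaks also gathered around the chains. Pooled peaks below the IDR set numbered 762 inside the spans, or 5.17 per 10 kb, and 5.45 per 10 kb in the 5 kb on either side, against 4.40 within 5 kb of single IDR peaks and 1.99 over the 6 chromosomes. Single peaks therefore had neighbours of lower rank at nearly the density that chains had. Transposable elements held 3 members' summits (0.286%) and 13 of the others (0.556%), with 0.472% over the whole IDR set.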

How the data were processed

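Per the labels, the data are ChIP-seq peaks of 2 replicates on dm6. The authors' deposited lists hold for each peak a summit, a signal and a −log10 q-value, of which only the summit and signal were used. Per the deposited notes, peaks were called per replicate and on both together with a control, and the IDR set was derived from these lists. The sources used here do not name the aligner, peak caller or IDR threshold. Depth is unknown.

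Summits were chained at 5000 bp, and positions are 1-based. Features come from Ensembl release 115 and sequence from the Release 6 reference. Summits were called promoter within 500 bp of any start; replicate entries were matched within 100 bp; A/T content and words used 200 bp. Scripts ran in Python 3.11.15 with numpy 2.4.6, pandas 2.3.3 and matplotlib 3.10.9, and chaining was tested on simulated data. Genes were named by rule: those at the 10 chains with most summits, the 5 of highest mean signal, the 3 of smallest mean gap without overlapping peaks, the largest on chromosome 4, up to 3 per gene list, and those with most dense summits, which were added after values were seen. The members and lists were chosen with earlier results of these data known. Of the gene lists, 1 symbol, Dl, was not matched. Alternatives were other distances, chain sizes, windows, promoter limits, merged or higher peaks and single replicates.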

Additional observations from a re-analysis of the deposited data

How the results depend on the processing

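The lower promoter share of dense chains kept its direction in 12 of 12 settings, the higher intron share in 10 of 10 and the higher median signal in 10 of 10, the reported settings included. A/T content was higher in 11 of 12, the exception being the 500 bp window with 61.6% against 62.4%; the 100 bp window gave 68.5% against 67.7%. Counts followed the rule: chaining at 2500 bp gave 165 chains with 589 peaks (17.4%) and an intron share of 39.7% against 38.9% in the other peaks, a much smaller difference than at 5000 bp, and chaining at 10000 bp gave 1668 peaks (49.2%) with a promoter share of 32.2%. Chains of 2 or more numbered 677 with 1864 peaks (55.0%) and a promoter share of 33.7%, and chains of 4 or more 116 with 588 peaks (17.4%) and 24.7%. Merging overlapping peaks gave 28.0% of peaks in dense chains, 27.1% at promoters and 46.1% in introns. Keeping IDR peaks above the median signal gave 92 chains with 328 peaks (19.4%), a median signal of 288 and a promoter share of 26.2%. Starts within 250 and 1000 bp gave promoter shares of 17.7% and 44.0%. Leaving out each replicate gave 262 to 275 chains, 1021 to 1050 peaks, 30.1% to 31.0% of peaks, median signals of 106 to 116 on the replicates' own scale, and promoter shares of 27.7% to 30.2%. The cause of these changes was not tested. No paired analysis of groups was possible because there is 1 group; dense and other peaks were compared within each replicate's list.

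Read depth, control signal and the scale of the signal are unknown, so values are compared only within a list. Whole pupae mix cell types, the tagged protein comes from a transgene, and a chain does not show that its sites are bound in the same cell. The 2 replicates give an SD but no test.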
